A study of Rattus norvegicus with 16 samples.

Results

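The 8 male libraries of a rat brainstem study were divided by how much transcript of Chat they held. Chat encodes choline acetyltransferase, the enzyme that makes acetylcholine, and is a transcript that motor neurons share with other cholinergic neurons. The sides were chosen by this measured level alone. Libraries above 16 CPM of Chat (CPM, counts scaled to library size) were taken as Chat-rich, and these were the libraries of animals 17, 23, 24 and 25. The libraries of animals 18, 19, 20 and 22 lay under that level and were taken as Chat-poor. Together they are 8 of the 16 libraries of the series. The other 8 are female libraries, which played no part in the division. The series title names the nucleus ambiguus as the tissue, whereas the sample labels say only brain. Males were wild type (WT) or Pink1-/-, a line lacking a working gene for the mitochondrial kinase PINK1, and all animals were 8 months old. Each side holds 2 WT libraries (23 and 24 Chat-rich, 20 and 22 Chat-poor) and 2 Pink1-/- libraries (17 and 25 Chat-rich, 18 and 19 Chat-poor), so genotype and side are not confounded. Neither strain name nor treatment is given in the labels, and no treatment entered any comparison. Animal numbers differ between all libraries, which are taken here as separate animals.

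The nucleus ambiguus is a slender column of cholinergic motor neurons in the ventrolateral medulla that supplies the larynx, pharynx and upper oesophagus through the vagus and glossopharyngeal nerves. Branchial motor neurons make acetylcholine with Chat, load it into vesicles with Slc18a3 and take choline back up with Slc5a7. They keep transcription factors such as Isl1 and Tbx20 from development and carry large axons rich in neurofilament. Around and among them lie noradrenaline and adrenaline neurons of the ventrolateral medulla, which use Th, Ddc and Dbh to make their transmitter, and many glycine, GABA and glutamate neurons. A dissected block of this region can therefore hold more or fewer cells of each kind. In bulk RNA, fewer cells of a kind and less RNA per cell cannot be told apart.

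Total counts ran from 10959412 to 13691846 per male library and overlapped between the sides (exact 2-sided permutation test, p = 0.543, n = 4 per side; 0.0286 is the smallest p that 4 libraries against 4 can give). Pink1, the targeted gene, was 64.6 to 78.2 CPM in the 4 WT males and 1.51 to 2.31 CPM in the 4 Pink1-/- males. The 2 most abundant loci, AY172581.24 and AY172581.9, took 36.5% to 40.6% of counts in the Chat-rich libraries and 41.5% to 44.0% in the Chat-poor ones (exact permutation test, p = 0.0286). Those shares do not overlap, and their part in any result below was not tested. Several library measures were tested in this way, and this p was the smallest among them and is not adjusted for their number. Library 17 stood apart in composition, with 2.10% of its counts from Rn7sl1, the signal recognition particle RNA, against 0.141% to 0.726% in the others. It also had the smallest share in the 13 protein-coding genes of the mitochondrial genome, 5.89% against 8.21% to 9.34%. Counts of calls in males, and the list values that library 17 moved, are given without it as well. It was singled out for this after its values, also those of motor neuron transcripts, were seen.

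Chat itself (ENSRNOG00000025012) was 20.9, 27.1, 21.0 and 19.8 CPM in Chat-rich libraries 17, 23, 24 and 25. It was 6.77, 13.3, 7.18 and 8.62 CPM in Chat-poor libraries 18, 19, 20 and 22. Library 25 was the closest to the threshold from above and library 19 from below. These values drew the division, so they carry no test. All CPM values here are scaled by the trimmed mean of M-values (TMM) and are not divided by transcript length, so levels compare libraries and not genes. Slc18a3 (ENSRNOG00000062141), the vesicular acetylcholine transporter, lies inside the Chat gene in the NCBI annotation of GRCr8 and may share reads with it, so it too is described without a test. It measured 7.003, 14.9, 10.2 and 10.4 CPM in libraries 17, 23, 24 and 25 and 4.28, 6.33, 2.62 and 3.45 CPM in libraries 18, 19, 20 and 22. The sides did not overlap for Slc18a3, and library 17 was the lowest of the Chat-rich libraries, just above library 19.

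The promoter windows of these genes are shown because Chat and Slc18a3 form a single nested locus. Since they may share reads, no result is drawn from their levels moving together across the libraries. Each window runs from 250 bases before to 50 bases after the annotated start, 300 bases in all, and comes from RefSeq on GRCr8. The Chat window is chr16:7723367-7723666 on the minus strand and the Slc18a3 window is chr16:7722765-7723064 on the same strand.
Chat: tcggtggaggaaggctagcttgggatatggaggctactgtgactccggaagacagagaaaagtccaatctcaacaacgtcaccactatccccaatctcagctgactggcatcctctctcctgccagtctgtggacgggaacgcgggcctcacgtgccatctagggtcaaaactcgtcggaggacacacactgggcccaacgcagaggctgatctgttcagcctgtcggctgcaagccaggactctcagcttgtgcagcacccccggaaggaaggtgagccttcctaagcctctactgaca
Slc18a3: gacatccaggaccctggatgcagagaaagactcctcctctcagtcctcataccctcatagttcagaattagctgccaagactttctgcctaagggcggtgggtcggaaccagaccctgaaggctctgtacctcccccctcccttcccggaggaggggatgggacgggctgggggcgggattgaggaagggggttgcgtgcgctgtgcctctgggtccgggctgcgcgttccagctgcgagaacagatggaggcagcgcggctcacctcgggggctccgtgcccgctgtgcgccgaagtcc
Neither window holds TGACGTCA, the full cyclic AMP response element, which reads the same on both strands and occurs in 1.83% of the 33469 rat promoter windows of this length. Of 25 genes looked up among those described here, 20 had a window in the RefSeq table. Among those 20, TGACGTCA was found in the windows of Th and Slc18a2.

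Across all genes, few transcripts followed the division drawn by Chat. With genotype in the model, 11 of 14013 genes tested passed (0.0785%), 10 higher on the Chat-rich side (0.0714%) and 1 lower (0.00714%), by edgeR's quasi-likelihood test at a Benjamini-Hochberg adjusted p under 0.05. The tests say whether a gene follows a division made from Chat in the same libraries. At an unadjusted p under 0.05 there were 933 genes (6.66%), of which 534 were higher (3.81%) and 399 lower (2.85%). The higher genes described here were Prph, Ahnak2, Sncg, Susd2, Hspb1, Ret, Tubb3, Tns1 and Tppp3, and the lower gene was Sgk1. Of the 11, 10 had sides that did not overlap, a separation seen in 2.83% of all genes tested (1.62% with the Chat-rich side higher and 1.21% with it lower).

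**Figure D1:**
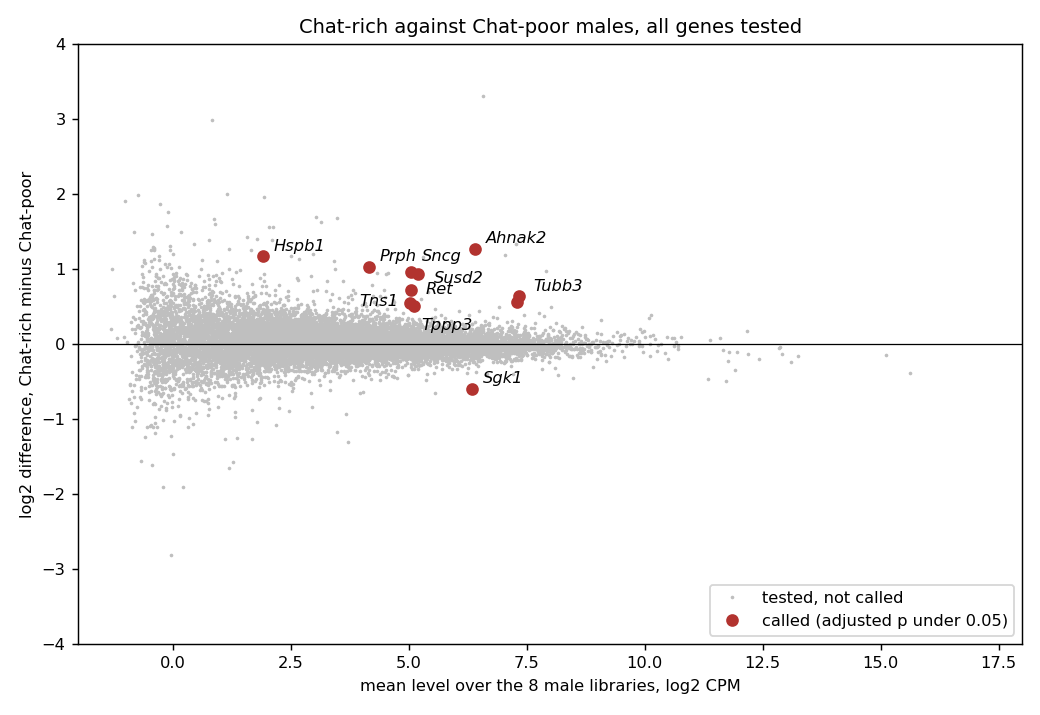
Log2 difference between Chat-rich and Chat-poor males (y axis, genotype in the model) against mean level over the 8 libraries (x axis, log2 CPM) for the 14013 genes tested; 2 genes beyond a log2 difference of 4 are not drawn. The 10 called genes above the line lie between 0.50 and 1.27, and Sgk1 is the 1 called gene below it.

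Prph (ENSRNOG00000052880), which encodes peripherin, an intermediate filament protein of neurons that send axons out of the central nervous system, gave the smallest p. It was 26.2, 23.1, 22.1 and 24.1 CPM in Chat-rich libraries 17, 23, 24 and 25 and 13.1, 11.7, 10.9 and 10.9 CPM in Chat-poor libraries 18, 19, 20 and 22. The sides lay well apart, and library 17 was the highest of all. The log2 difference was 1.03 ± 0.09 (SE), with adjusted p = 0.00199 by edgeR. Ahnak2 (ENSRNOG00000028545), the gene of a very large scaffold protein, was 90.8, 162, 120 and 107 CPM in the same Chat-rich libraries and 48.8, 50.3, 45.6 and 50.2 CPM in the Chat-poor ones. Its Chat-poor values lay close together, and its log2 difference was 1.27 ± 0.13 (SE), adjusted p = 0.00483 by edgeR. Sncg, the gene of gamma-synuclein, was 50.8, 34.7, 42.3 and 48.1 CPM against 24.7, 24.7, 17.2 and 23.2 CPM, and again the sides did not overlap (log2 difference 0.96 ± 0.10, adjusted p = 0.00483 by edgeR).

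Hspb1 encodes the small heat shock protein HSP27. It stood at 5.37, 4.89, 4.86 and 5.69 CPM in libraries 17, 23, 24 and 25 and at 2.10, 3.02, 2.20 and 1.95 CPM in libraries 18, 19, 20 and 22 (log2 difference 1.17 ± 0.17, adjusted p = 0.0375 by edgeR). Every Chat-rich library was above every Chat-poor one. The Hspb1 window, chr12:26432252-26432551 on the minus strand, is shown because it was the one window among the 20 genes that held GAANNTTC, a facing pair of heat shock factor half-sites. That motif reads the same on both strands, occurs in 8.59% of windows of this length, and is in capitals at its 2 occurrences.
Hspb1: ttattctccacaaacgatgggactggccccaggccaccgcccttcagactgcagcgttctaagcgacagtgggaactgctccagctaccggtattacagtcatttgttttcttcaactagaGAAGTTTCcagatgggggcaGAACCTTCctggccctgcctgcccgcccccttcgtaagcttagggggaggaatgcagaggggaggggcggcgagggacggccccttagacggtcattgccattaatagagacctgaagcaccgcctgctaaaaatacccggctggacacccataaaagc
A match describes these letters and does not show a bound site.

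Ret, the receptor tyrosine kinase for GDNF family ligands that sustain motor neurons, was 33.8, 53.1, 40.9 and 36.7 CPM in Chat-rich libraries 17, 23, 24 and 25. It was 23.2, 24.5, 23.5 and 27.4 CPM in Chat-poor libraries 18, 19, 20 and 22 (log2 difference 0.72 ± 0.11, adjusted p = 0.0477 by edgeR). The sides were apart for Ret as well. Tubb3, the neuronal beta-tubulin, was 157 to 250 CPM on the Chat-rich side, with library 17 the highest, and 121 to 134 CPM on the Chat-poor side. Its log2 difference was 0.63, with adjusted p = 0.0481 by edgeR. Tns1, whose product tensin-1 links integrins to actin, Tppp3, of a family of tubulin-binding proteins, and Susd2 were also called. Susd2 was 38.8 to 53.0 CPM against 21.7 to 28.8 CPM (log2 difference 0.93). Tns1 and Tppp3 had log2 differences of 0.55 and 0.50.

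Sgk1, a serum- and glucocorticoid-induced kinase, was the single gene called lower. In WT it was 74.3 and 90.8 CPM in Chat-rich libraries 23 and 24 against 125 and 124 CPM in Chat-poor libraries 20 and 22. In Pink1-/- males it was 49.8 and 44.5 CPM in libraries 17 and 25 against 65.3 and 76.1 CPM in libraries 18 and 19. The sides were apart within each genotype but overlapped once both were pooled, because Sgk1 was also lower in Pink1-/- (log2 difference -0.82, adjusted p = 0.000545 by edgeR). Its side difference was -0.60 ± 0.08 (SE), adjusted p = 0.0375 by edgeR. The next genes by p in the lower direction did not pass. They were the orphan receptor gene Gpr165 at -0.40, the neuronal glycine transporter gene Slc6a5 at -0.41, Hnrnpul2 at -0.33 and Mt-nd5, a complex I subunit of the mitochondrial genome, at -0.46, with adjusted p from 0.197 to 0.412 by edgeR. Without library 17 the difference of Mt-nd5 was -0.36.

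The count of calls turned on single libraries. It was 37 without library 17, 2 without 18, 8 without 19, 3 without 20, 4 without 22, 5 without 23, 3 without 24 and 3 without 25. Prph and Ahnak2 passed in each of these 8 fits and Sncg in 7 of them, while the other 8 genes each failed in 6 or 7. Without the genotype term 2 genes passed.

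Among transcripts of acetylcholine handling, Chat was not tested and none of the 6 tested members of a list of 9 passed, although Slc5a7 and Slc10a4 were higher in libraries 23, 24 and 25 than in any Chat-poor library. Of these 6, 4 had a positive and 2 a negative difference, and the median was 0.16. Without library 17 the signs were again 4 and 2 and the median was 0.12, with 2 called higher, beside 0.247% of all genes. Slc5a7, the high-affinity choline transporter, was 88.3, 294, 177 and 184 CPM in Chat-rich libraries 17, 23, 24 and 25. It was 53.3, 114, 68.8 and 77.3 CPM in Chat-poor libraries 18, 19, 20 and 22. Library 17 lay inside the Chat-poor range, and the log2 difference of 1.19 ± 0.30 (SE) did not pass over the 8 libraries (adjusted p = 0.416 by edgeR). Slc10a4, a vesicular transporter-like protein of cholinergic and monoamine neurons, was 3.60, 7.79, 6.23 and 6.99 CPM against 2.41, 2.93, 1.69 and 1.35 CPM. Its sides did not overlap, but library 17 again lay closest to the Chat-poor libraries (log2 difference 1.55 ± 0.29, adjusted p = 0.127 by edgeR). The enzyme and anchor genes of acetylcholine breakdown overlapped between the sides. Ache was 54.9 to 67.6 CPM on the Chat-rich side and 48.5 to 58.3 CPM on the Chat-poor side, Prima1 was 20.6 to 26.5 CPM against 19.5 to 24.1 CPM, and Bche 19.2 to 26.4 CPM against 23.1 to 28.2 CPM. Slc44a1, a choline transporter of many cell types, was 123 to 137 CPM against 146 to 160 CPM and did not pass. Colq was under 1 CPM in every library and below the filter on low counts.

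**Figure D2:**
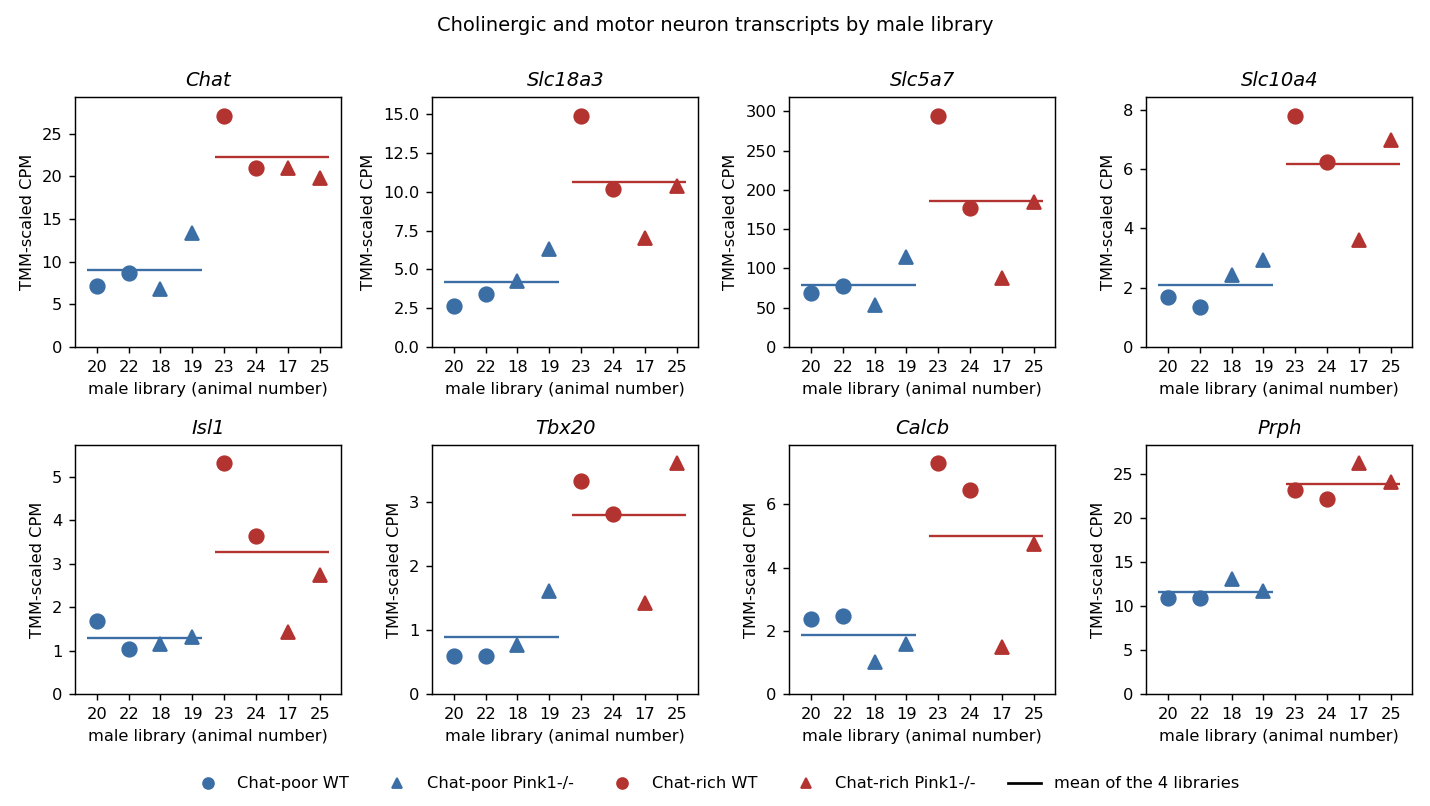
TMM-scaled CPM of 8 cholinergic and motor neuron transcripts in each male library (x axis, animal number; circles WT, triangles Pink1-/-; blue Chat-poor, red Chat-rich; lines are means of 4 libraries). Library 17 sits with the Chat-rich libraries for Chat and Prph and among the Chat-poor libraries for Slc5a7, Isl1, Tbx20 and Calcb.

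Of 16 transcription factors that mark motor neurons or their brainstem neighbours, 9 passed the filter and none was called. This list did not lean to the Chat-rich side: 4 were positive and 5 negative, with a median log2 difference of -0.025. Without library 17, 3 were positive and 6 negative and the median was -0.050, with 2 called higher, beside 0.247% of all genes. Isl1, a LIM homeodomain factor of motor neurons, was 1.43, 5.31, 3.64 and 2.74 CPM in Chat-rich libraries 17, 23, 24 and 25 and 1.17, 1.32, 1.69 and 1.05 CPM in Chat-poor libraries 18, 19, 20 and 22. Tbx20, a T-box factor of branchial and visceral motor neurons, was 1.43, 3.32, 2.81 and 3.60 CPM against 0.778, 1.61, 0.592 and 0.600 CPM. For both, libraries 23, 24 and 25 were above all Chat-poor libraries and library 17 was not. Their log2 differences were 1.26 ± 0.31 and 1.66 ± 0.39 (SE), with adjusted p = 0.415 and adjusted p = 0.379 by edgeR. The count behind these values was small, between 7 and 64 counts per library. Other factors were mixed. Lhx4, a LIM homeodomain factor of developing motor neurons, averaged 1.03 CPM on the Chat-rich side and 0.475 CPM on the Chat-poor side, with overlap (log2 difference 1.13, unadjusted p = 0.0117, adjusted p = 0.634 by edgeR). Tbx2 was 0.476 to 0.648 CPM against 0.189 to 0.389 CPM, so its sides were apart, but it was below the filter on low counts. Nkx6-1, a homeodomain factor of the ventral neural tube, had a difference in the other direction (-0.55, unadjusted p = 0.0364, adjusted p = 0.725 by edgeR). Esrrg was 43.7 to 52.6 CPM on the Chat-rich side and 45.3 to 50.04 CPM on the Chat-poor side, and Ebf1 was 11.2 to 15.4 CPM against 11.3 to 15.3 CPM. Mnx1, Isl2 and Lhx3, known from spinal and other somatic motor neurons, did not pass the filter, and Isl2 and Lhx3 were under 0.2 CPM throughout.

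The effector genes of motor neurons, meaning their peptides, receptors and surface proteins, leaned to the Chat-rich side. Of 20 members, 18 passed the filter and 3 were called higher (Prph, Sncg and Ret), beside 0.0714% of all genes tested. A positive difference was found in 17 of the 18, beside 7188 of all 14013 genes, and the median was 0.48 against 0.0048 for all genes. The list was chosen with earlier results of these data known. Its lean is therefore a description, and motor neuron content was not tested by it. Higher with an unadjusted p under 0.05 were 10 of the 18, beside 3.81% of all genes. Without library 17, 7 of the 18 were called higher, beside 0.247% of all genes, 16 were positive and the median was 0.53. Library 17 was singled out after its values were seen, and it held several of these genes at Chat-poor levels. Leaving it out favours such genes, so the larger count of calls is not a separate result. Some lists of other cells or positions had higher medians with no call, namely 0.51 over 6 cerebellar and precerebellar genes, 0.64 over 3 blood genes and 0.90 over 3 Hox genes, and their part in the side comparison was not tested. Calca and Calcb, whose genes encode the alpha and beta forms of calcitonin gene-related peptide, a motor neuron peptide, were clear of the Chat-poor range only in libraries 23, 24 and 25. Calca was 2.18, 11.03, 7.59 and 4.47 CPM in libraries 17, 23, 24 and 25 and 1.61 to 2.47 CPM in the Chat-poor libraries. Calcb was 1.496, 7.30, 6.45 and 4.75 CPM against 1.01 to 2.47 CPM. Neither passed over the 8 libraries (adjusted p = 0.416 and adjusted p = 0.298 by edgeR). Chodl, the gene of the membrane lectin chondrolectin that marks fast motor neurons in mouse, was 21.5, 72.2, 53.7 and 70.7 CPM against 19.4 to 29.7 CPM. Uts2, which encodes the peptide urotensin 2 of cholinergic motor neurons, was 2.45, 4.06, 5.85 and 5.40 CPM against 1.27 to 2.40 CPM, so its sides were just apart. Neither passed over the 8 libraries (adjusted p = 0.442 and adjusted p = 0.370 by edgeR). Gfra1, the co-receptor that binds GDNF beside Ret, was 34.0 to 40.8 CPM against 29.9 to 34.8 CPM and did not pass. Gap43, Slit2, Gfra2, Ngfr and Nos1 had log2 differences between -0.06 and 0.12.

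Axon cytoskeleton genes were examined as a neighbouring list of 13, all of them tested. This list too was chosen with earlier results of these data known, so its lean is only described. Prph, Sncg and Tubb3 were called, beside 0.0714% of all genes called higher. Positive differences numbered 12 of 13, beside 7188 of all 14013 genes, and the median was 0.32. Without library 17 the same counts were 3 and 12, and the median was 0.35. Nefl, the light neurofilament chain, was 968 to 1471 CPM on the Chat-rich side and 885 to 1054 CPM on the Chat-poor side. Nefh, the heavy chain, was 1084 to 1495 CPM against 758 to 1125 CPM, so both overlapped and neither passed. Uchl1, a neuronal ubiquitin hydrolase, was 248 to 289 CPM against 189 to 217 CPM, with sides apart and adjusted p = 0.125 by edgeR. Ina, the alpha-internexin gene, was the one member lower on the Chat-rich side, at 140 to 167 CPM against 161 to 187 CPM.

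Library 17 thus held Chat, Prph, Sncg and Tubb3 at Chat-rich levels while several other motor neuron transcripts were at Chat-poor levels. It was singled out after its values were seen. With it left out, 37 of 14179 genes passed, 35 higher (0.247%) and 2 lower (0.0141%), and all 11 genes called over the 8 libraries were among them. Of the 33 cholinergic and motor neuron list members tested, 11 were then higher: Chodl, Prph, Slc10a4, Calcb, Sncg, Ret, Tbx20, Uts2, Calca, Slc5a7 and Isl1. Their log2 differences without library 17 ran from 0.78 for Ret to 1.98 for Tbx20. For 6 of the 11, library 17 was inside the Chat-poor range. Over all 35 higher genes it was inside that range for 12, above it for 22 and below it for 1 (Ykt6). The second gene called lower without library 17 was Slc6a5, the transporter that loads glycine neurons, at 248, 254 and 211 CPM in libraries 23, 24 and 25 against 288 to 342 CPM on the Chat-poor side (log2 difference -0.48, adjusted p = 0.0341 by edgeR). Library 17 was at 266 CPM for it, also below the Chat-poor range. Among the other genes that joined were Kcnj14, an inward rectifier potassium channel gene of motor neurons, at 31.0 to 41.5 CPM in libraries 23, 24 and 25 against 13.5 to 18.4 CPM, and Anxa2 with its partner S100a10, which form an annexin complex at membranes. Anxa2 was 29.9 to 38.1 CPM against 13.3 to 20.3 CPM, with library 17 at 19.2 CPM. Kcnj14 was 19.4 CPM in library 17, just above the Chat-poor range.

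**Figure D3:**
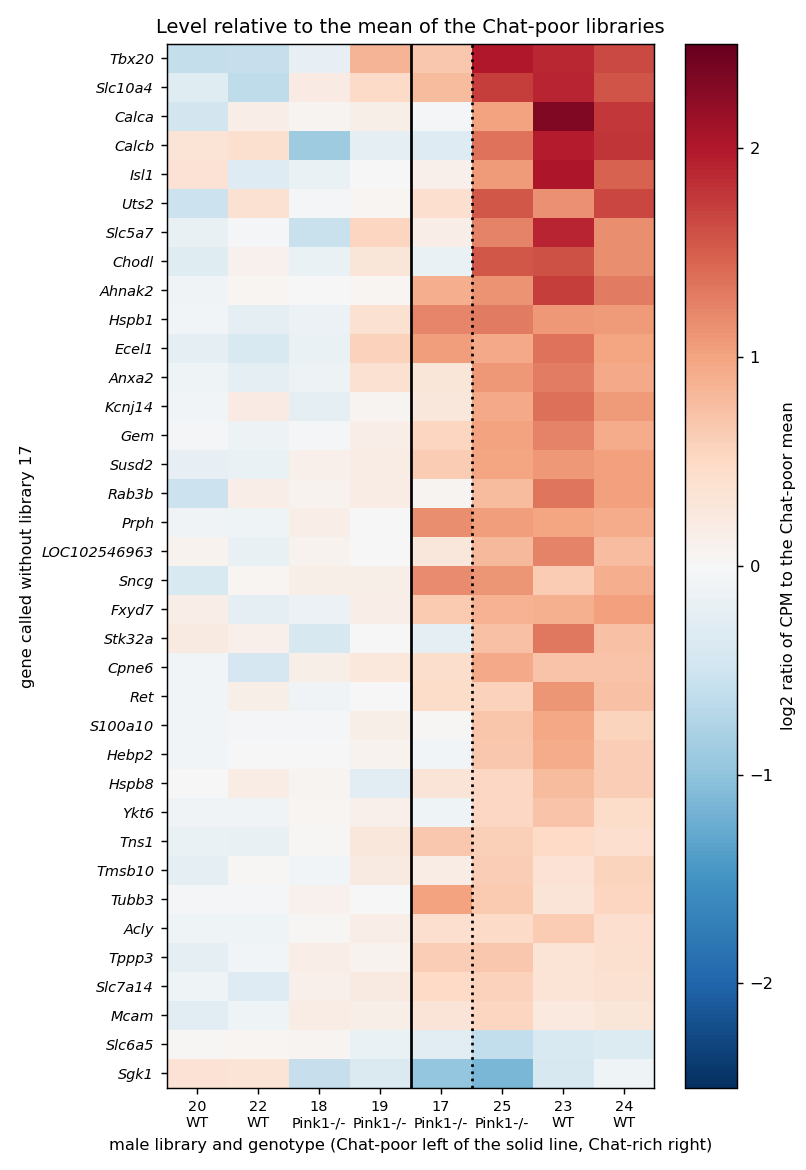
Level of 36 of the 37 genes called without library 17 in each male library, as the log2 ratio of CPM to the mean of the 4 Chat-poor libraries (columns are libraries with their genotype, rows are genes ordered by their difference without library 17; red above and blue below the Chat-poor mean). The column of library 17 is near white for Calca, Isl1, Slc5a7 and Chodl and red for Prph, Sncg, Hspb1 and Tubb3.

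Catecholamine neurons were followed through 2 lists, one of synthesis and vesicle loading and one of transport, breakdown and receptors. None of the 6 tested members of the first (of 9) or the 11 of the second (of 18) passed in the side comparison, and their median differences were -0.14 and -0.03. Without library 17 none passed either, and the medians were -0.32 and -0.05. Th, tyrosine hydroxylase, the first enzyme of the pathway, was 4.08, 0.912, 0.607 and 2.45 CPM in Chat-rich libraries 17, 23, 24 and 25. It was 1.79, 1.23, 2.62 and 1.80 CPM in Chat-poor libraries 18, 19, 20 and 22. The Chat-rich side thus held both the highest and the 2 lowest values (log2 difference -0.04 ± 0.46, adjusted p = 0.992 by edgeR). Dbh, dopamine beta-hydroxylase, which converts dopamine to noradrenaline, was 10.3, 0.166, 0.228 and 3.31 CPM against 1.87, 2.36, 6.76 and 3.37 CPM. Its highest value was also in library 17 and its 2 lowest in libraries 23 and 24, which were nearly devoid of it (log2 difference -0.38 ± 0.85, adjusted p = 0.953 by edgeR).

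The Th window, chr1:207508169-207508468 on the minus strand, is shown because it is one of the 2 windows that hold TGACGTCA. The element stands in capitals and begins 69 bases before the annotated start; a cyclic AMP response element at this promoter is well known in rat.
Th: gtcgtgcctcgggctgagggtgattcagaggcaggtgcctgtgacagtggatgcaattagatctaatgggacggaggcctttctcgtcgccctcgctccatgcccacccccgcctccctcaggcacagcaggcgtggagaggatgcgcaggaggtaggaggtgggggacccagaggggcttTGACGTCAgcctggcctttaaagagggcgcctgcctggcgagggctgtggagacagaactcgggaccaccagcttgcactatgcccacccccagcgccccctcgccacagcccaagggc
The presence of these letters was not related to the levels measured here.

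Slc6a2, the noradrenaline transporter, was 14.3, 0.746, 1.90 and 9.58 CPM in libraries 17, 23, 24 and 25 and 6.15, 5.66, 13.6 and 9.22 CPM in libraries 18, 19, 20 and 22. In WT males it was low in both Chat-rich libraries and high in both Chat-poor ones, and in Pink1-/- males the Chat-rich libraries were the higher. The difference between these differences, the interaction of side and genotype, passed for 2 of 14304 genes (0.014%), Slc6a2 and LOC103689927, by edgeR's quasi-likelihood test. For Slc6a2 the log2 interaction was 4.08 (adjusted p = 0.0274 by edgeR). LOC103689927 (ENSRNOG00000047396), which no source used here describes further, was 3.94, 0.166, 0 and 4.61 CPM in libraries 17, 23, 24 and 25 and 3.19 to 5.16 CPM in the Chat-poor libraries. It was thus low in the 2 WT Chat-rich libraries alone (log2 interaction 5.88, adjusted p = 0.0274 by edgeR). Dbh had the same layout without passing over the 8 libraries (log2 interaction 6.29, adjusted p = 0.135 by edgeR). It did pass without library 17 (5.25, adjusted p = 0.0402 by edgeR), without library 25 (6.88, adjusted p = 0.00518 by edgeR) and with DESeq2 (6.36, adjusted p = 6.81e-07), and its adjusted p was 0.0876 to 0.761 with any other single library left out. In WT males alone, 2 libraries against 2, Dbh and Slc6a2 passed as lower on the Chat-rich side, with log2 differences of -4.60 and -3.08 and adjusted p = 0.00812 and adjusted p = 0.00786 by edgeR. In Pink1-/- males alone the differences were 1.69 and 1.01 and did not pass. The interaction calls depended on single libraries. There were 0 without library 18, 19 or 20, 1 without 23, 4 without 22, 5 without 17 or 25 and 6 without 24. Scaling by library totals alone also left 0, with 739 genes (5.17%) at an unadjusted p under 0.05 in the original fit.

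**Figure D4:**
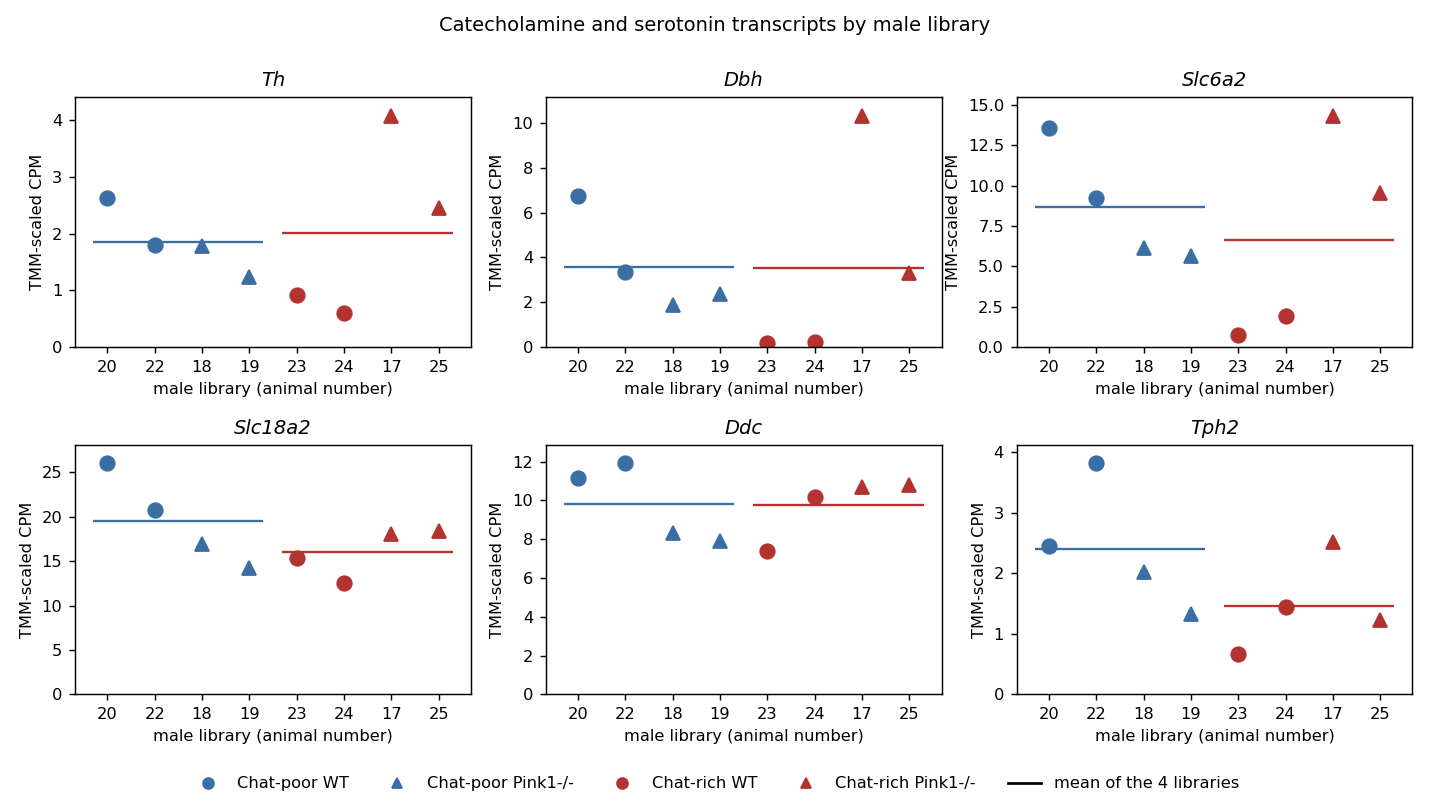
TMM-scaled CPM of 5 catecholamine transcripts and of Tph2, the serotonin synthesis enzyme, in each male library (x axis, animal number; circles WT, triangles Pink1-/-; blue Chat-poor, red Chat-rich; lines are means of 4 libraries). Dbh and Slc6a2 are lowest in WT Chat-rich libraries 23 and 24 and highest in library 17.

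The rest of the pathway was flatter. Ddc, the decarboxylase shared with serotonin neurons, was 7.38 to 10.8 CPM on the Chat-rich side and 7.93 to 11.9 CPM on the Chat-poor side. Slc18a2, the vesicular monoamine transporter, was 18.0, 15.3, 12.5 and 18.4 CPM in libraries 17, 23, 24 and 25 against 17.0, 14.3, 26.0 and 20.8 CPM in libraries 18, 19, 20 and 22, with the lowest value in library 24. Pnmt, which makes adrenaline, was listed at 0 in 7 libraries and at 0.0845 CPM in library 20, and Slc6a3, the dopamine transporter, was above 0 only in library 25. In females, Pnmt was 8.91 CPM in library 980, from 226 counts, and 0.218 to 1.80 CPM in the other 7 libraries. Phox2a, a factor of noradrenaline neurons, was 0.612 CPM in library 17, 0 in libraries 23, 24 and 25, and 0.233 to 0.676 CPM in the Chat-poor libraries. The degrading enzymes Maoa and Maob overlapped between sides. Among receptors, Adra1d, the alpha-1D adrenoceptor, was 1.33 to 1.63 CPM against 0.661 to 0.930 CPM, with sides apart but not passing (adjusted p = 0.576 by edgeR). Adra2a and Drd2 overlapped between the sides.

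Other neighbouring cell groups were described through further lists. Of 14 glycine and GABA genes, all tested, none passed over the 8 libraries and 1, Slc6a5, had sides apart, with a median difference of -0.08. Serotonin transcripts were few, with Tph2 at 0.663 to 2.52 CPM on the Chat-rich side and 1.32 to 3.82 CPM on the Chat-poor side and no call among 5 tested. The 12 glutamate genes were split evenly in sign and none passed. Astrocyte, oligodendrocyte, microglia and endothelial lists held 11, 15, 12 and 14 tested genes with no call in either direction. All 13 protein-coding mitochondrial genes had a negative difference, with a median of -0.23 and no call, and for each of the 13 the lowest library was 17, as for Mt-nd5 at 1766 CPM against 2200 to 3246 CPM in the other 7. Without library 17, 9 of the 13 were negative and the median was -0.08, again with no call.

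The female libraries give an independent measure, since the division used none of them. Their Chat level ran from 6.23 CPM in library 111 to 76.9 CPM in library 504, a wider span than in males. Female total counts were 13875621 to 26570195 per library. Each gene was fitted against log2 Chat CPM with genotype in the model, so a slope of 1 means that a transcript doubled when Chat doubled. The sexes were fitted apart because their tables were deposited separately. Of 15859 genes tested 184 passed (1.16%), 140 with a positive slope (0.883%) and 44 with a negative one (0.277%), by edgeR's quasi-likelihood test. All 11 male calls kept their sign in females, where 51.3% of all tested genes had a positive slope, and 10 of the 11 passed there. The exception was Sgk1, with a slope of -0.03 and adjusted p = 0.926 by edgeR.

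In females Prph followed Chat over a wide range. It was 78.0, 7.42, 110 and 62.0 CPM in female WT libraries 64, 111, 504 and 980 and 56.8, 16.8, 99.1 and 32.9 CPM in Pink1-/- libraries 548, 602, 736 and 983. The lowest values were in libraries 111 and 602, which had the least Chat, and the highest in 504, which had the most. Its slope was 1.05 ± 0.07 (SE), adjusted p = 0.000229 by edgeR. Hspb1 gave the smallest p of all, with a slope of 0.87 ± 0.05 (SE), adjusted p = 6.61e-05 by edgeR. Several genes that failed over the 8 males passed in females. The slopes were 0.87 for Slc5a7, 1.27 for Slc10a4, 1.53 for Isl1, 1.18 for Calcb, 1.55 for Chodl, 1.38 for Uts2 and 0.94 for Tbx20, with adjusted p from 0.000229 to 0.0383 by edgeR. Isl1 was 0.107 CPM in library 111 and 4.58 CPM in library 504. Nkx6-1 also passed (slope 0.92, adjusted p = 0.0160 by edgeR), although its male difference was negative, and it passed in 3 of the 8 fits with a female library left out. Slopes of Prph, Ahnak2, Hspb1, Susd2, Ret, Tubb3, Tns1, Tppp3, Slc5a7, Slc10a4, Isl1, Calcb and Uts2 passed with each female library left out in turn, whereas Tbx20 passed in 3 of those 8 fits. Calca did not pass in females (slope 0.36, adjusted p = 0.484 by edgeR).

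Seen from the females, 138 of the 140 rising genes were also tested in males. Of these, 124 had a positive male side difference, beside 7188 of all 14013 male genes, and 87 had both a positive difference and an unadjusted male p under 0.05, beside 3.81% of all genes. Of the 43 falling genes tested in males, 26 were negative there, beside 6825 of all 14013 male genes. The count of female calls moved with the library left out. It was 37 without library 111, 103 without 504, 76 without 548, 46 without 602, 48 without 736, 454 without 980 and 65 without 983, and 165 without 64. Of the 37 male genes called without library 17, all kept their sign in females and 28 passed there. Among all genes tested in females, 51.3% had a positive slope and 1.16% passed. Library 17 was singled out after its values were seen, so these counts are not a separate result.

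**Figure D5:**
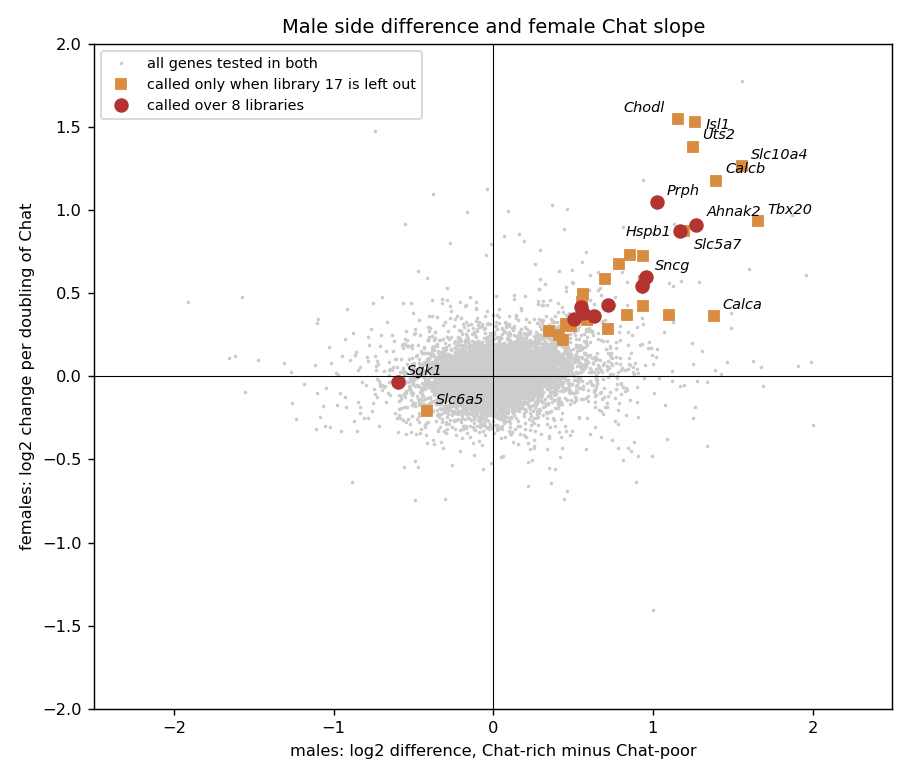
Female slope on Chat (y axis, log2 change per doubling of Chat) against the male log2 difference between sides (x axis) for genes tested in both sexes; 7 genes outside the axes are not drawn. The 10 genes called higher over 8 males (red) and all genes called higher only without library 17 (orange) lie in the upper right, while Sgk1 lies near a slope of 0.

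In females, 8 members of the first catecholamine list and 14 of the second were tested. None of the first passed, and Slc6a2 and Adra1a of the second did, beside 1.16% of all genes tested. Adra1a, the alpha-1A adrenoceptor, had a slope of 0.33 (adjusted p = 0.0329 by edgeR), with levels of 12.5 to 34.2 CPM spread over the 8 libraries, and it passed in 3 of the 8 fits with a library left out. Its male difference was -0.11. Slc6a2 had a slope of 2.34 ± 0.45 (SE), adjusted p = 0.0432 by edgeR, but library 504 was at 55.2 CPM and the other 7 at 0.107 to 6.53 CPM. It passed in 2 of the 8 fits with a library left out, and without library 504 the slope was 1.35 (adjusted p = 0.0765). Dbh was 33.0 CPM in library 504 and 0 to 8.08 CPM elsewhere, and Th was 22.7 CPM there and 1.24 to 12.4 CPM elsewhere. Neither slope passed (adjusted p = 0.309 and adjusted p = 0.289 by edgeR). Noradrenaline transcripts thus varied over a wide range in both sexes, and the library richest in Chat among females was also the richest in Th and Dbh.

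The genotype comparison in males was also read with the side as a term. With it, 282 of 14013 genes passed (2.01%), 138 higher and 144 lower in Pink1-/-, and without it 318 passed, 149 higher and 169 lower. The 2 sets shared 250 genes. Prph, Ahnak2, Ret and Tubb3 did not pass for genotype (adjusted p from 0.152 to 0.265 by edgeR), and of the 11 side calls only Sgk1 did. With single libraries left out, the genotype count was 203 without 17, 84 without 18, 144 without 19, 185 without 20, 89 without 22, 137 without 23, 94 without 24 and 232 without 25.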

How the data were processed

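The deposited tables, 1 per sex, hold whole-number estimated counts for 32754 Ensembl identifiers, used without scaling or further rounding (0 per-sample columns were left unused). Per the submitters' processing notes, these came from RSEM (version not stated) and the authors also used edgeR 3.9. No aligner, build or annotation is given in the sources used here, nor whether the TruSeq preparation kept strand. Values of multicopy loci such as the mitochondrial ones are uncertain, because RSEM splits their reads by estimate. The authors' own comparison tables were not used.

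Sides were set from TMM-scaled Chat CPM (threshold 16). Genes passing filterByExpr in edgeR (minimum count 10, minimum total 15) were tested with edgeR 4.0.16 in R 4.3.3 (glmQLFit, glmQLFTest), with genotype and side as terms. Chat and Slc18a3 were left out of the tests, and p-values were adjusted over all genes tested. The SE of a log2 difference is its size over the square root of F. The p-values measure spread between libraries, and precision is limited by 4 libraries a side.

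The members and gene lists were chosen with earlier results of these data known. Of 397 list members 385 matched. Named genes were Chat, Pink1, the members of the cholinergic, motor neuron and catecholamine lists, the called genes with sides apart and a mean of at least 1 CPM, called members of other lists, genes that passed in males and females alike, the genes of the interaction, and the next by p where few passed; Sgk1, Uchl1, Ina, Nefl, Nefh, Kcnj14, Anxa2, S100a10, Ykt6 and Tph2 were added after their values were seen. Libraries of a group differed beyond counting noise in all 24 pairs. Alternatives were RLE factors, library totals, other filters, DESeq2 1.42.0, the likelihood ratio test, limma-voom (limma 3.58.1), no genotype term, continuous Chat, each genotype alone, a looser adjusted p of 0.10 and each library left out; the last for the interaction, and libraries 17 and 19 left out together, were added after the data were seen. The fits were tested on simulated data. Some genes are not reported here, though they count in the totals.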

Additional observations from a re-analysis of the deposited data

Results flagged for a closer look

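Among 78 sets of 4 libraries (a gene or measure on 1 side), 4 held a library far from the other 3 by Dixon's test, where chance alone gives about 1 in 20. Chat was highest in Chat-rich library 23, at 27.1 CPM against 19.8 to 21.0 CPM in the other 3. Because Chat drew the division, its Chat-rich values were cut off below 16 CPM, and this flag carries no test. Phox2a was 0.612 CPM in Chat-rich library 17 and 0 in the other 3. It is a transcription factor of noradrenaline neurons, and library 17 also had the most Dbh, Th and Slc6a2. Calca was lowest in Chat-poor library 20, at 1.61 CPM against 2.33 to 2.47 CPM. Hnrnpul2 was lowest in Chat-poor library 22, at 65.2 CPM against 74.8 to 75.5 CPM.

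The difference between Chat-rich and Chat-poor libraries differed between the genotypes for 2 genes by the interaction test of edgeR. The log2 interaction was 4.08 for Slc6a2 and 5.88 for LOC103689927. Both were low in the 2 WT Chat-rich libraries, 23 and 24, and the interaction calls were lost when library 18, 19 or 20 was left out.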

How the results depend on the processing

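The side comparison called 11 genes, 3 of them in the cholinergic, motor neuron and catecholamine lists. These counts were 233 and 12 with no filter on low counts, 41 and 8 with DESeq2, 53 and 10 with the likelihood ratio test, 2 and 1 without a genotype term, 27 and 9 in WT males alone, 4 and 1 in Pink1-/- males alone, and 33 and 9 without libraries 17 and 19; limma-voom gave 27 in all. With single libraries left out they ran from 2 to 37 and from 1 to 11. Interaction calls (2) were 0 with library totals, 7 with DESeq2 and 0 to 6 with single libraries left out. Genotype calls (282) were 709 with DESeq2 and 84 to 232 with single libraries left out, and female slope calls (184) were 580 and 37 to 454. Library totals alone moved the median difference of all genes from 0.0048 to 0.10, and the 10 genes called higher stayed positive in every alternative, while Sgk1 (-0.50) and Tubb3 (0.74) lost their calls with those totals. With log2 Chat itself in place of the sides, Prph (slope 0.63 per doubling of Chat, adjusted p = 0.0745), Sncg, Tubb3, Tppp3 and Sgk1 lost their calls. Ahnak2 passed in all 21 alternatives and Prph in 19. Some uncalled values changed sign. Th (-0.04 as reported) was 0.056 with library totals, 0.13 without a genotype term, 1.09 in Pink1-/- males alone, and 0.29, 0.04, 0.18 and 0.30 without library 20, 22, 23 or 24, and as low as -0.48 without 17. Dbh (-0.38 as reported) was 0.0024 without a genotype term, 1.69 in Pink1-/- males alone, and 0.18, 0.23 and 0.24 without library 20, 23 or 24, and as low as -1.50 without 17. In Pink1-/- males alone Slc6a2 was 1.01, Slc18a2 was 0.21 and LOC103689927 was 0.18. The cause of these changes was not tested. No paired analysis was possible because the replicate numbers are animal numbers and no 2 groups share one. Depth limits transcripts such as Isl1 and Tbx20, with few counts per library.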

Other observations

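Further gene groups can be described from the genes that rose with Chat in females. Potassium channel genes Kcnmb4, a large-conductance channel beta subunit, and Kcnk9, a leak channel, had slopes of 0.97 and 0.23 per doubling of Chat. Their male log2 differences were 1.87 and 0.33, neither passing in males. Dysf, the membrane repair gene dysferlin, and Itga7, an integrin subunit gene, had slopes of 0.52 and 0.41 and male differences of 0.66 and 0.72. Hspb8 and Bag3, whose products act together as chaperones, both rose with Chat in females, and Hspb8 passed in males without library 17 (log2 difference 0.62, adjusted p = 0.0441 by edgeR). These genes were chosen after their values were seen.

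Erythrocyte and cerebellar transcripts leaned to the Chat-rich side in males without passing. Hbb was 17.1 to 39.1 CPM in the Chat-rich libraries and 13.3 to 22.8 CPM in the Chat-poor ones. Gabra6, the receptor subunit gene of cerebellar granule cells, was 0.432 to 1.41 CPM against 0.0778 to 0.600 CPM. Neither had a positive female slope that passed, and their part in the side comparison was not tested.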
